A study of Mus musculus with 24 samples.

Results

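The lasting difference between Tet2-knockout and wild-type macrophages was examined in bone-marrow-derived macrophages (BMDM), as the knockout minus wild-type difference within each time of interleukin-4 (IL4) treatment, averaged over 0, 10 and 24 h. All 12 BMDM RNA libraries of the series entered, of 24 samples in all, because each carried a genotype and a time label. The 6 groups were wild type or Tet2 knockout on a C57BL/6 background, each untreated (0 h) or given IL4 at 20 ng/ml for 10 or 24 h, with 2 libraries per group. Marrow from the long bones was cultured for 7 days with L929-conditioned medium and macrophage colony-stimulating factor, and the medium was replaced by plain serum-containing medium on the evening before IL4, so that all groups, untreated included, shared this step. The knockout allele, the age and sex of the marrow donors, and the number of mice behind the replicates are not given in the sources used here. The design text calls the replicates biological, but whether the times of a genotype came from the same mice is not given, so the p-values measure the spread between replicate libraries within a time. The other samples were 8 libraries of macrophages sorted from melanomas, used below as a second tissue, and 4 DNA libraries that were not analysed here.

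Tet2 is a dioxygenase that oxidises 5-methylcytosine in DNA to 5-hydroxymethylcytosine, a step towards loss of methylation, and it also recruits histone deacetylases to some inflammatory genes. Macrophages take up dead cells, handle their lipid and iron, present antigen and remodel matrix. IL4, acting through STAT6, drives the alternative activation program, with arginase and lectins among its products.

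The promoter windows of 4 genes that the results turn on are shown because Tet2 acts on methylated CG pairs, which are in capitals. Each window covers 250 bases before and 50 bases after the first RefSeq transcription start, read 5′ to 3′ on the strand of the gene, in the GRCm38.p6 assembly. Cd5l (chr3:87357631-87357930, plus strand) and Col1a2 (chr6:4505368-4505667, plus strand) were higher in the labelled knockout. Ifi30 (chr8:70766614-70766913, minus strand) and Abca9 (chr11:110168104-110168403, minus strand) were lower.
Cd5l: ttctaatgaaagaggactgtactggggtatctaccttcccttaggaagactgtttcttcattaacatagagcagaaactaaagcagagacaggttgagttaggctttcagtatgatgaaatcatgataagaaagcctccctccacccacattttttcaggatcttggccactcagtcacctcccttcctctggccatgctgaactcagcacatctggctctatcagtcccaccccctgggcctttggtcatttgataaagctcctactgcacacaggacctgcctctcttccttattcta
Col1a2: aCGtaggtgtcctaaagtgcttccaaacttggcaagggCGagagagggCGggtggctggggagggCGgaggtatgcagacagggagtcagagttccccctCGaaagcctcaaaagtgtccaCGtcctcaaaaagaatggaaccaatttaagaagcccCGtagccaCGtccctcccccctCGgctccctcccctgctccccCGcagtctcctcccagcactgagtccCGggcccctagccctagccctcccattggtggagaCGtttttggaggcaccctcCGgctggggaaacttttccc
Ifi30: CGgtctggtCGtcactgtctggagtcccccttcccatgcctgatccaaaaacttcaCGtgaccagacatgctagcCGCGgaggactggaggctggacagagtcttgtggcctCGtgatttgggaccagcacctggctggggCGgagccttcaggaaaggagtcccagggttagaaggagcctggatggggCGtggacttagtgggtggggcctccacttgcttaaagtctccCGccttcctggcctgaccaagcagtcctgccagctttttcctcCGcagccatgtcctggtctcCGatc
Abca9: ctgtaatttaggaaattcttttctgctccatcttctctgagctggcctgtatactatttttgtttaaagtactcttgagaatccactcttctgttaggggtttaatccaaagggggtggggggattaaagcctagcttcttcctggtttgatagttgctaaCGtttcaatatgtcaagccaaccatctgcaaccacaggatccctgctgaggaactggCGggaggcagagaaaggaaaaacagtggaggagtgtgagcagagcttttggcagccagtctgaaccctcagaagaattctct

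The Cd5l window held 0 CG pairs and that of Abca9 held 2, whereas Col1a2 held 13 and Ifi30 held 11. The median over the windows was 19 CG pairs for the genes that rose in the averaged difference (524 of 742 had a window), 17 for those that fell (228 of 303) and 21 for all tested genes (7803 of 10510). The 9 windows of the 15 leading higher genes had a median of 8, and the 12 windows of the 15 leading lower genes a median of 5. The letters GAGGAA, searched on both strands as the core bound by the macrophage factor PU.1, occurred in 29.6% of the windows of genes that rose, 36.8% of those that fell and 27.2% of all tested windows. A match describes the letters only, and methylation at these windows was not analysed here.

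Tet2 messenger RNA did not separate the genotypes. At 0 h Tet2 stood at 4.11 and 5.91 FPKM (fragments per kilobase of transcript, scaled to the total of mapped fragments) in wild type and at 4.02 and 4.48 FPKM in the libraries labelled knockout. At 10 h the values were 8.74 and 8.81 FPKM against 7.22 and 8.19 FPKM, and at 24 h 9.38 and 9.82 FPKM against 11.3 and 10.3 FPKM. The labelled knockout was thus below both wild-type libraries at 10 h, above both at 24 h and overlapped them at 0 h, and values were higher at later times in both genotypes. The averaged difference was -0.06 ± 0.08 on the log2(FPKM + 1) scale (SE, 6 libraries per genotype, adjusted p = 0.680, limma), and an exact permutation of labels within times gave p = 0.537, two-sided, where the smallest possible is 0.00926. A whole-gene value can miss the loss of single exons, so it neither checks nor contradicts the labels, and the groups are called labelled knockout from here on. Tet3, the other Tet enzyme measured in these cells, differed by -0.04 ± 0.12 (adjusted p = 0.889), and Tet1 was at most 0.0164 FPKM. The signs of both small differences depended on single libraries: without wild-type 0 h replicate 2, Tet2 was 0.0082 and Tet3 was 0.089, and without wild-type 24 h replicate 2, Tet3 was 0.014.

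None of the tested Y-linked genes, Nnt or the tested neighbours of Tet2 was called between the genotypes. The Y-linked Kdm5d, Eif2s3y, Ddx3y and Uty were expressed in all 12 libraries and Xist was at most 0.0072 FPKM. Nnt, which a deletion inactivates in the C57BL/6J substrain, ranged from 5.61 to 7.90 FPKM in all libraries. A whole-gene value can miss the loss of some exons. Tumour macrophages from mice labelled C57BL/6J had Nnt at 2.74 to 7.60 FPKM, so this value does not tell the substrain. Of the 20 nearest RefSeq genes around Tet2, 3 could be tested (Gstcd 0.10, Ints12 -0.07 and Ppa2 -0.04) and 0 were called. On chromosome 3, which carries Tet2, 10.6% of tested genes were called, within the range of 6.59% to 14.7% over the autosomes. Total FPKM ran from 365118 to 557183 per library and 9707 to 9930 genes reached 1 FPKM, with Rpph1, a short non-coding RNA, taking 11% to 16.5% of the total. Reads per library are not given in the sources used here. Steps between low values put the relative depth at 0.858 to 1.39 times that of the first wild-type 0 h library. Knockout libraries were deeper at 0 h (1.24 and 1.07 against 1 and 1.01) and 24 h (1.30 and 1.08 against 0.954 and 0.858). They were shallower at 10 h (0.97 and 1.05 against 1.39 and 1.09). Fewer genes were at 0 FPKM in both knockout libraries at every time, as at 24 h (8279 and 8505 against 8709 and 9088). The part of depth in the calls was not tested, and the precision of each value could not be computed from counts.

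Of 10510 genes that reached 1 FPKM in at least 2 libraries, 1045 (9.94%) passed an adjusted p of 0.05 in the averaged difference. The labelled knockout was higher for 742 genes (7.06%) and lower for 303 (2.88%), so that 71% of the calls were higher. That split moved with scaling: after median-of-ratios scaling 700 genes were higher and 539 lower (56.5% higher), and after quantile normalization 692 were higher and 584 lower (54.2%). The typical change was modest, with a median of 0.32 for the higher genes and -0.38 for the lower ones, against 0.03 over all tested genes (-0.0008 after median-of-ratios scaling). A log2 difference of at least 1 was reached by 24 higher and 17 lower genes, of which 18 and 9 had gene names and the rest were numbered gene models or small RNA genes. Higher genes were less abundant (median 4.70 FPKM) than lower genes (8.25 FPKM) and tested genes as a whole (7.85 FPKM). The spread between replicates was widest in wild type at 24 h (SD of the log2 difference 0.350) and 0 h (0.341), and without wild-type 0 h replicate 1 the calls rose to 1348 higher and 441 lower.

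**Figure D1:**
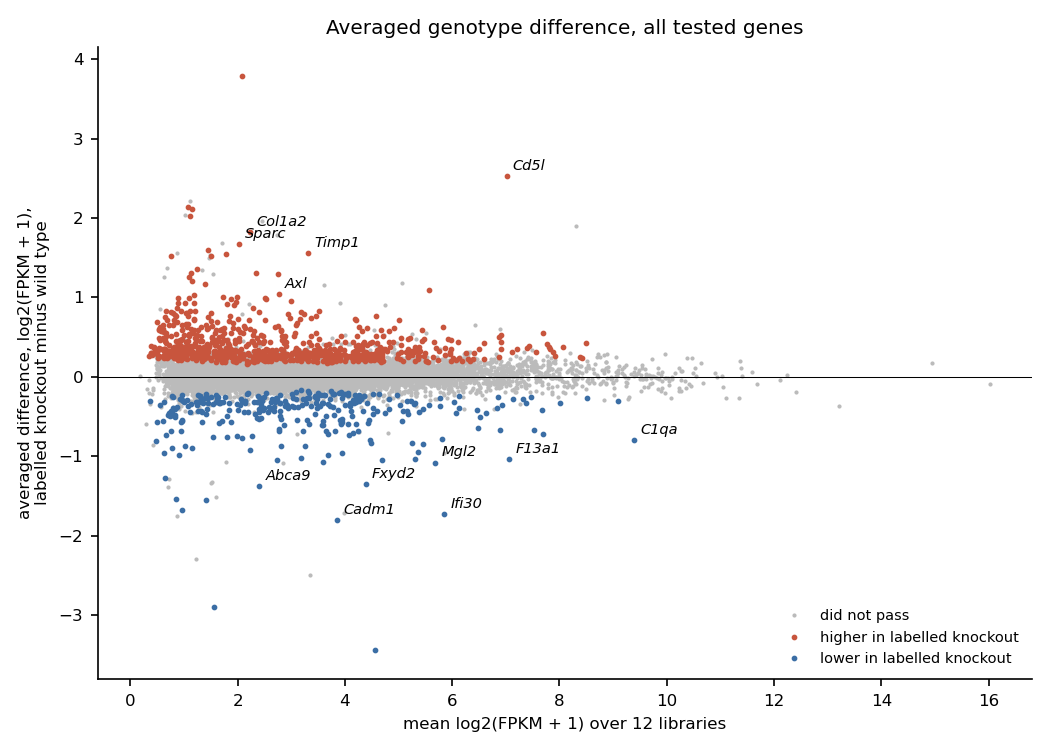
Averaged genotype difference (y axis, log2(FPKM + 1), labelled knockout minus wild type) against mean level over 12 libraries (x axis, log2(FPKM + 1)) for 10510 tested genes, each point a gene. The 742 higher genes are red, the 303 lower genes blue, and Cd5l stands apart among abundant genes.

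The difference had the same sign at 0, 10 and 24 h for 678 of the 742 higher and 262 of the 303 lower genes. Calling genes on the average of these same differences favours such a match, and the share over all tested genes was not computed. Both labelled-knockout libraries lay above both wild-type libraries at each of the 3 times for 470 of the higher genes (6.3% of all tested genes did so), and below them for 192 of the lower genes (2.42% of all tested). In the strictest separation every one of the 6 labelled-knockout libraries lay beyond all 6 wild-type libraries, whatever the IL4 time. It held for 64 called higher genes and 37 called lower genes. Among all tested genes, called or not, 69 (0.657%) lay above in this way and 40 (0.381%) below. The leading 15 genes in each direction were the named genes with the largest averaged difference among those that separated at every time. All 30 stayed past the threshold under every alternative processing in which they were tested, which their choice for large differences in these same libraries favours.

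Cd5l, a secreted protein of tissue macrophages that binds lipids and is induced by the liver X receptor (LXR), showed the largest averaged increase of any gene other than numbered gene models and small RNA genes. Its level was 101 and 67.8 FPKM in wild type and 608 and 576 FPKM in the labelled knockout at 0 h, 43.9 and 34.3 against 255 and 266 FPKM at 10 h, and 43.6 and 47.7 against 194 and 190 FPKM at 24 h. The lowest labelled-knockout library thus exceeded the highest wild-type library, in cells with and without IL4. The averaged log2 difference was 2.53 ± 0.10 (SE, adjusted p = 1.9e-07), or 7.00-fold at 0 h, 6.66-fold at 10 h and 4.20-fold at 24 h. Spic, the transcription factor of iron-recycling red pulp macrophages, which also express Cd5l, rose by less (0.59 ± 0.11, adjusted p = 0.00569). Its values were 2.97 and 1.80 against 4.90 and 7.02 FPKM at 0 h and 0.671 and 0.622 against 0.828 and 1.09 FPKM at 24 h.

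**Figure D2:**
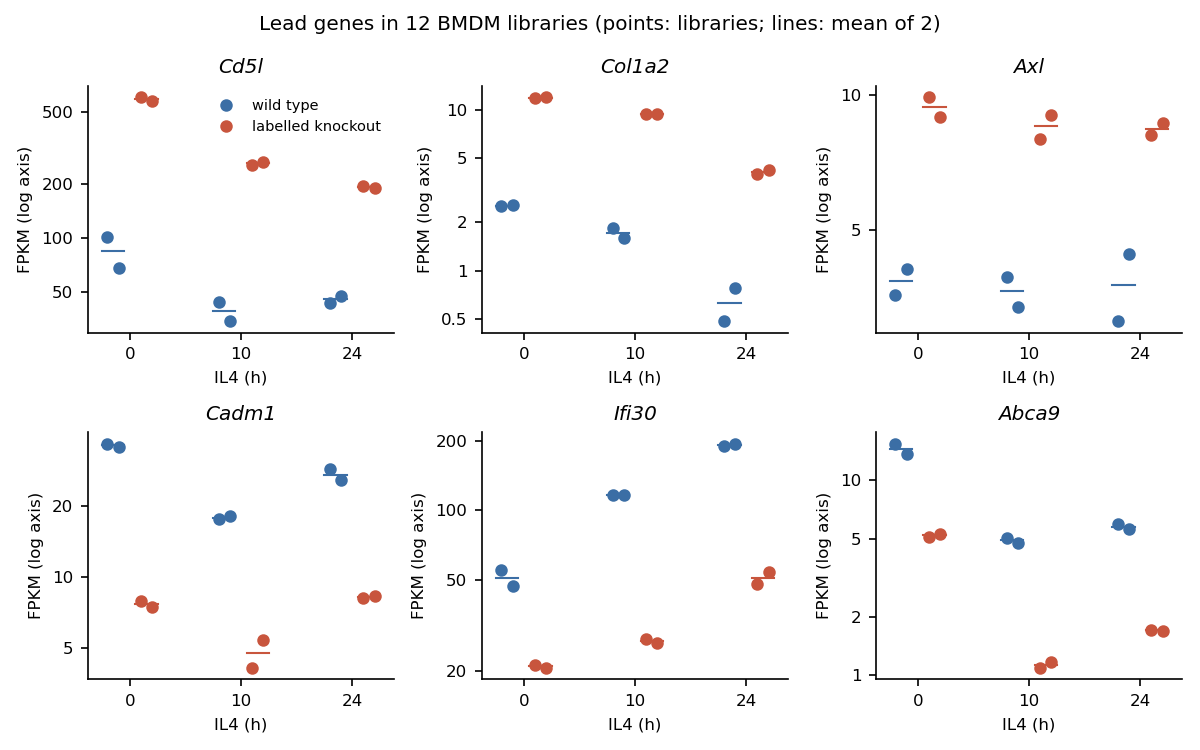
FPKM on a log axis in each of the 12 BMDM libraries for 3 higher genes (Cd5l, Col1a2, Axl) and 3 lower genes (Cadm1, Ifi30, Abca9), by hours of IL4. Points are libraries, lines are means of 2, and the genotypes do not overlap at any time.

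Of the 14 other leading higher genes, 7 were on the list of matrix and collagen-processing genes: Col1a2, Sparc, Mgp, Timp1, Serpinh1, Lox and Col5a2. That list held 30 of the 10510 tested genes. Col1a2, a chain of type I collagen, stood at 2.51 and 2.55 FPKM in wild type and 11.9 and 12 FPKM in the labelled knockout at 0 h, 1.84 and 1.59 against 9.42 and 9.44 FPKM at 10 h, and 0.483 and 0.776 against 4.03 and 4.21 FPKM at 24 h. Its values were lowest at 24 h in both genotypes, and no time overlapped (1.82 ± 0.06, adjusted p = 1.2e-07). Sparc, a collagen-binding matrix protein, ranged from 0.617 to 1.89 FPKM in wild type and from 3.28 to 9.51 FPKM in the labelled knockout. Mgp, the matrix Gla protein that inhibits calcification, ranged from 0.238 to 0.907 against 1.79 to 9.09 FPKM. Both were separate in all 12 libraries, at differences of 1.67 ± 0.06 and 1.60 ± 0.11. Serpinh1, the chaperone of procollagen, differed by 1.54 ± 0.09, Lox, which cross-links collagen, by 1.53 ± 0.07, and Col5a2, a fibrillar collagen chain, by 1.31 ± 0.05. Dcn, a small proteoglycan, differed by 1.35 ± 0.09 and Grem1, a secreted antagonist of bone morphogenetic proteins, by 1.26 ± 0.06. Grem1 was at 0 and 0.0408 FPKM in wild type at 24 h against 0.788 and 0.559 FPKM. Mgp, Col5a2, Dcn and Grem1 reached 1 FPKM in labelled-knockout libraries alone, so that they could be tested only where they were high.

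Of 46 matrix and collagen-processing genes listed, 30 were tested, 18 were higher (60%) and 0 lower, beside 7.06% and 2.88% of all tested genes. The median difference was 0.57 against 0.03 over all tested genes. Of those 30, 8 reached 1 FPKM in labelled-knockout libraries alone, so that they could be tested only where they were high. Of the 22 that reached it in wild type, 10 were higher. Other higher members were Timp3, an inhibitor of metalloproteinases (0.99 ± 0.08), Fstl1 (0.99), the matricellular Ctgf (0.93) and the proteoglycan Bgn (0.69), each above both wild-type libraries at every time. Some abundant members did not share the direction: Timp2, at 62.7 to 91.5 FPKM in wild type, differed by -0.17 (adjusted p = 0.138) and Tgfbi by -0.19 (adjusted p = 0.113). After either rescaling, and also without wild-type 24 h replicate 1, 4 members, Timp2 and Tgfbi among them, were lower.

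The summed fibroblast markers were also higher, but this result shares genes with the matrix result. Col1a1, Col1a2 and Col3a1 are on both lists, and Dcn is a leading gene. In labelled-knockout 0 h replicate 1, Col1a2 alone was 11.9 of the 25.7 FPKM, and the sum without shared genes was not computed. The summed level of 11 fibroblast markers was 2.71 to 5.56 FPKM in wild type and 9.92 to 25.7 FPKM in the labelled knockout. The 4 that could be tested, Col1a2, Dcn, Postn and Cdh11, were all higher (100%, beside 7.06% of all tested genes). Of these, 2 could be tested through the labelled knockout alone, and 6 of the 11 stayed below 1 FPKM in every library. Col1a1, the partner chain of Col1a2, ranged from 0.0375 to 0.416 FPKM in wild type and from 0.358 to 1.27 FPKM in the labelled knockout. Pdgfrb and Thy1 were at most 0.136 and 0.0391 FPKM. None of the 11 was at 0 in all libraries. Macrophage markers were far above these sums, with 9756 to 19683 FPKM in wild type and 7329 to 16113 FPKM in the labelled knockout over 9 markers. That sum overlapped between genotypes at 0 h and was lower in the labelled knockout at 10 and 24 h. Of the 9, Fcgr1, Itgam and Cd14 were lower (33.3%) and none was higher, beside 2.88% and 7.06% of all tested genes. Emr1 (F4/80) and Csf1r differed by 0.05 and -0.14 (adjusted p = 0.799 and 0.334). In bulk RNA a change in the number of cells of a type and a change in RNA per cell cannot be told apart, and the part of fibroblast RNA in the matrix result was not tested.

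**Figure D3:**
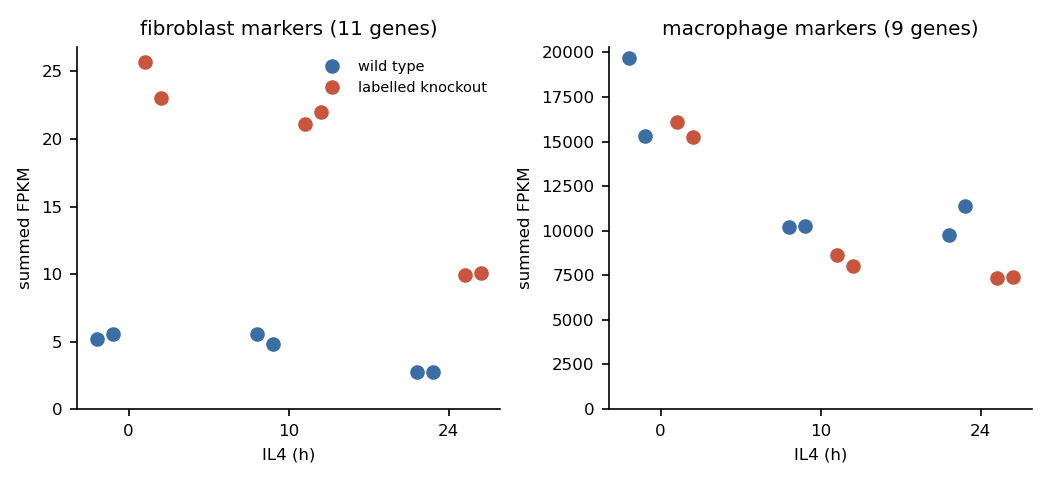
Summed FPKM of 11 fibroblast markers (left) and 9 macrophage markers (right) in each of 12 BMDM libraries by hours of IL4, each point a library, y axes from 0. The fibroblast sums of the labelled knockout (9.92 to 25.7 FPKM) lie above all wild-type sums (2.71 to 5.56 FPKM).

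Enzymes and inhibitors that act on matrix and clots were split. Timp1, an inhibitor of metalloproteinases, ranged from 2.68 to 11.1 FPKM in wild type and from 13.1 to 19.3 FPKM in the labelled knockout (1.56 ± 0.07). Serpinb2, which inhibits plasminogen activators, rose by 0.81 ± 0.09. In 16 tested metalloproteinase and inhibitor genes 6 were higher (37.5%) and 2 lower (12.5%, with 4 lower after either rescaling). Of all tested genes 7.06% were higher and 2.88% lower. Of the 16, 2, Mmp2 among them, reached 1 FPKM in labelled-knockout libraries alone, and 1 in wild-type libraries alone. The higher ones included the collagenase Mmp13 (0.71 ± 0.09, 1.54 to 4.24 against 3.41 to 6.38 FPKM) and the gelatinase Mmp2 (0.58 ± 0.06). In 16 tested coagulation genes 6 were higher (37.5%) and 3 lower (18.8%). Of these 16, 1 reached 1 FPKM in labelled-knockout libraries alone, and 5 of the 15 that reached it in wild type were higher. F13a1, the transglutaminase subunit that cross-links fibrin and a gene of monocytes and resident macrophages, fell from a range of 97.9 to 398 FPKM to one of 39.8 to 240 FPKM (-1.03 ± 0.07).

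Cell-cycle genes rose together. Of 35 tested members of a 37-gene list, 26 were higher and 0 lower, against 7.06% and 2.88% of all tested genes, with a median difference of 0.31. Of the 32 members that reached 1 FPKM in wild type, 24 were higher. Ccnd1, cyclin D1 of the G1 phase, was 2.49 and 1.98 FPKM against 5.06 and 4.69 FPKM at 0 h, 5.86 and 5.25 against 10.3 and 12.2 FPKM at 10 h, and 7.33 and 8.18 against 17.8 and 18.0 FPKM at 24 h (0.96 ± 0.07, adjusted p = 9.2e-06). Values were higher at later times in both genotypes, with the labelled knockout above wild type each time. Uhrf1, which guides maintenance methylation at replication forks (0.70 ± 0.05), the topoisomerase Top2a (0.55 ± 0.07) and the ribonucleotide reductase subunit Rrm2 (0.54) had their largest differences at 24 h, of 1.05, 0.99 and 1.03. Rrm2 lost its call without the 24 h libraries (adjusted p = 0.0753). The list median was 0.21 at 0 h, 0.20 at 10 h and 0.58 at 24 h. Top2a stood at 6.94 and 5.56 FPKM in wild type at 24 h and at 12.6 and 14 FPKM in the labelled knockout.

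Cadm1, an adhesion molecule of the immunoglobulin superfamily, showed the largest decrease among called genes other than numbered gene models, a pseudogene and small RNA genes. Its values were 36.5 and 35.3 FPKM in wild type against 7.88 and 7.44 FPKM in the labelled knockout at 0 h, 17.5 and 18.1 against 4.13 and 5.40 FPKM at 10 h, and 28.5 and 25.6 against 8.15 and 8.34 FPKM at 24 h. Even the highest labelled-knockout library was below the lowest wild-type library (-1.80 ± 0.06, adjusted p = 1.2e-07). Of 17 tested adhesion and integrin genes, 7 were higher (41.2%) and 3 lower (17.6%), beside 7.06% and 2.88% of all tested genes. Of the 17, 1 reached 1 FPKM in labelled-knockout libraries alone, and 6 of the 16 that reached it in wild type were higher. Alcam, another adhesion molecule of that superfamily, rose by 0.51 ± 0.07. Itgam, the CD11b chain used to mark myeloid cells, fell from 38.4 to 60.3 FPKM to 26.1 to 46.5 FPKM (-0.40 ± 0.06), with the call lost when the 10 h libraries were left out (adjusted p = 0.0872).

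Ifi30, a lysosomal thiol reductase that unfolds antigens for presentation, was lower in the labelled knockout before and during IL4, and higher at later times in both genotypes. It stood at 55.0 and 46.7 FPKM against 21.3 and 20.7 FPKM at 0 h, 116 and 116 against 27.7 and 26.5 FPKM at 10 h, and 190 and 194 against 47.6 and 53.9 FPKM at 24 h (-1.73 ± 0.06). After 24 h of IL4 the labelled knockout stood near the values of untreated wild type. Hgsnat, the lysosomal acetyltransferase of heparan sulfate breakdown, was separate in all 12 libraries, at 28.4 to 45.3 FPKM in wild type and 14.6 to 18.8 FPKM in the labelled knockout (-1.04 ± 0.07, with differences of -0.98, -1.04 and -1.10 at 0, 10 and 24 h). Slc11a1, a metal transporter of the phagosome, fell from 40.2 to 83.8 FPKM to 20.1 to 43.1 FPKM (-1.03 ± 0.09). Of 32 tested proteases and hydrolases on the lysosomal list, 1 was higher and 3 were lower, shares of 3.12% and 9.38% beside 7.06% and 2.88% of all tested genes, with a median of 0.01. The median became -0.03 after median-of-ratios scaling and -0.01 after quantile normalization, with 7 and 6 members lower.

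Genes of MHC class II presentation were lower where they passed. Of 8 tested members 4 fell and 0 rose, a share of 50% lower beside 2.88% of all tested genes, with a median of -0.31. H2-Ab1, a chain of the class II molecule I-A, stood at 11.1 and 11 against 6.24 and 4.54 FPKM at 0 h and at 54.9 and 86.8 against 33.7 and 44.0 FPKM at 24 h (-0.73 ± 0.12, adjusted p = 0.00373). Its partner chain H2-Aa differed by -0.58 ± 0.11 (adjusted p = 0.00792). The invariant chain Cd74 (-0.39, adjusted p = 0.0309) and H2-Eb1 (-0.53, adjusted p = 0.0396) passed in the full set, yet each lost the call in 8 of 12 fits that left out 1 library. The highest adjusted p among those fits was 0.101 for Cd74 and 0.109 for H2-Eb1. Leaving out the 0 h libraries ended the call of all 4, with adjusted p from 0.0547 for H2-Ab1 to 0.595 for Cd74, and leaving out the 10 h libraries ended that of H2-Aa, Cd74 and H2-Eb1 (adjusted p = 0.132, 0.0679 and 0.080). Without the 24 h libraries H2-Eb1 was not called (adjusted p = 0.0571). H2-DMa, a peptide-loading subunit, was close to equal (0.08, adjusted p = 0.627), and the class II transactivator Ciita differed by -0.23 (adjusted p = 0.0992).

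Among receptors of resident macrophages the balance was towards lower levels. Of 22 tested resident-macrophage and complement genes 5 fell (22.7%) and 2 rose (9.09%), the latter being Cd5l and Spic, with a median of -0.12. Of all tested genes 2.88% fell and 7.06% rose. After either rescaling, and without wild-type 24 h replicate 1, 8 members fell. Folr2, folate receptor beta, stood at 60.2 and 50.4 FPKM against 38.6 and 33.4 FPKM at 0 h, at 36.4 and 36.4 against 16.5 and 19.2 FPKM at 10 h, and at 78.1 and 96.0 against 33.0 and 40.3 FPKM at 24 h (-0.94 ± 0.08). C3ar1, the receptor for complement fragment C3a, ranged from 107 to 178 FPKM in wild type and 85.1 to 103 FPKM in the labelled knockout (-0.66 ± 0.06). Cd163, the scavenger receptor for haemoglobin, ranged from 4.29 to 5.21 against 2.71 to 4.09 FPKM (-0.47 ± 0.06). Both separated over all 12 libraries, though the gap was small at 24 h. Siglec1, a sialic-acid-binding receptor, differed by -0.71 ± 0.11. Fcna, the lectin ficolin A, was at 12.2 to 23.0 FPKM against 6.25 to 9.76 FPKM (-0.98 ± 0.09).

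The 3 chains of complement C1q, encoded by neighbouring genes and singled out after their values were seen, did not move alike. C1qa was 801 and 618 FPKM against 472 and 419 FPKM at 0 h, 956 and 874 against 517 and 505 FPKM at 10 h, and 875 and 1292 against 576 and 576 FPKM at 24 h (-0.79 ± 0.11, adjusted p = 0.00106). C1qb differed by -0.08 ± 0.10 (adjusted p = 0.709) and C1qc by -0.14 ± 0.11 (adjusted p = 0.494), with overlapping libraries. The difference between the chains was not tested.

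Several membrane receptors and transporters were among the leading lower genes. P2ry12, an ADP receptor, fell from 4.10 and 3.22 FPKM to 0.893 and 0.967 FPKM at 0 h and from 0.595 and 0.727 to 0.196 and 0.141 FPKM at 24 h (-0.87 ± 0.07). Of 11 tested purinergic genes 3 were lower and 1 higher (5 lower after quantile normalization, 2 higher without wild-type 0 h replicate 1 or 24 h replicate 2). The shares of 3 and 1 are 27.3% and 9.09%, beside 2.88% and 7.06% of all tested genes. Of the 11, only P2ry12 reached 1 FPKM in wild-type libraries alone, so that it could be tested only where it was high. The higher one was the UDP-glucose receptor P2ry14, at 1.44 to 3.25 against 3.2 to 5.59 FPKM (0.65 ± 0.07). Gpr34, a lysophosphatidylserine receptor, differed by -0.60 ± 0.11, and lost its call without the 10 h libraries (-0.32, adjusted p = 0.262). Slc15a2, a peptide transporter, was at 0.809 to 1.5 FPKM in wild type and 0.0567 to 0.164 FPKM in the labelled knockout. Like P2ry12, it reached 1 FPKM in wild-type libraries alone. Its FPKM ratio was 10.1 to 12.2 between genotypes, a gap that the log2(FPKM + 1) scale compresses to -0.95 ± 0.06 at such low values. Tlr6, the Toll-like receptor that pairs with Tlr2, was separate in all 12 libraries (4.92 to 6.53 against 2.12 to 2.82 FPKM, -0.92 ± 0.07). Fxyd2, a subunit of the sodium pump, differed by -1.35 ± 0.15, the organic anion carrier Slco2b1 by -1.03 ± 0.07 and the guanine nucleotide exchange factor Rin2 by -0.96 ± 0.07.

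**Figure D4:**
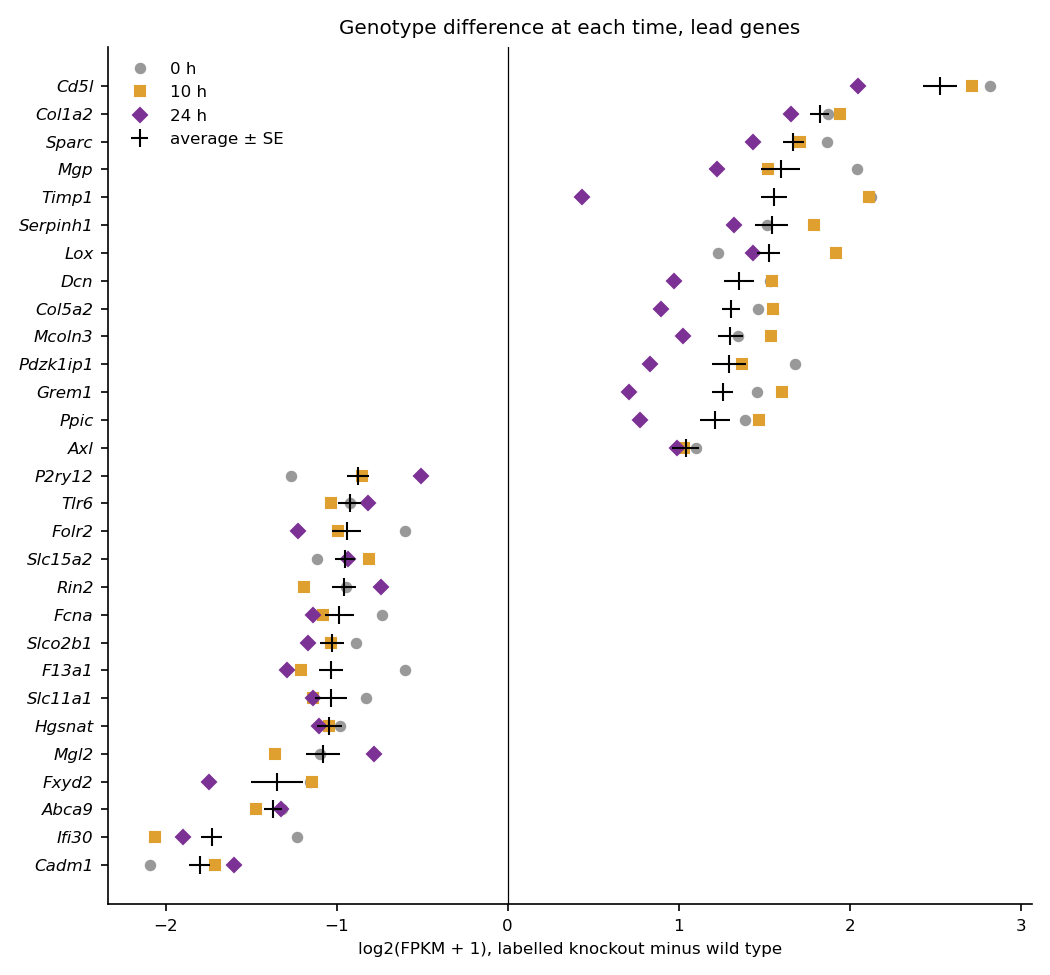
Genotype difference on the log2(FPKM + 1) scale (x axis) at 0, 10 and 24 h and its average ± SE (black) for 14 of the leading higher and the 15 leading lower genes. Every within-time difference of these genes has the sign of its average, which the choice of genes requires, and Timp1 at 24 h (0.43) is nearest 0.

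Genes of lipid transport and LXR targets were divided. Abca9, of the ABCA subfamily of lipid transporters, was at 15.4 and 13.7 FPKM against 5.11 and 5.33 FPKM at 0 h, 5.07 and 4.76 against 1.09 and 1.17 FPKM at 10 h, and 5.96 and 5.59 against 1.72 and 1.70 FPKM at 24 h (-1.37 ± 0.05, adjusted p = 1.3e-07). Of 15 tested ABC lipid transporters 4 were lower and 4 higher (26.7% each, beside 2.88% and 7.06% of all tested genes). The higher ones included Abcg2 (0.60 ± 0.07) and Abcg3 (0.60 ± 0.07). In a list of 18 LXR targets that includes Cd5l, 4 were higher (22.2%) and 2 lower (11.1%). The counts were 5 and 5 after either rescaling and without wild-type 24 h replicate 1, and 7 and 3 without wild-type 24 h replicate 2. Of the 18, 1 reached 1 FPKM in labelled-knockout libraries alone, and 3 of the 17 that reached it in wild type were higher. Nr1h3, which encodes LXR alpha, was at 3.87 and 3.87 FPKM against 10.3 and 9.20 FPKM at 0 h, yet at 11.7 and 16.1 against 14.4 and 12.2 FPKM at 24 h. Its averaged difference of 0.55 ± 0.09 (adjusted p = 0.00327) was 0.26 without the 0 h libraries (adjusted p = 0.244). The LXR targets Abca1, the cholesterol exporter, and Apoc2, the lipoprotein lipase cofactor, were lower (-0.35 ± 0.06 and -0.83 ± 0.11), and the Abca1 call ended without the 10 h libraries (adjusted p = 0.131). Among 23 tested genes of cholesterol synthesis, 4 passed upwards (17.4%) and 0 downwards, with 9 upwards without wild-type 0 h replicate 1 but 2 after median-of-ratios scaling.

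Several receptors of efferocytosis, the uptake of dying cells, were higher. Axl, a receptor tyrosine kinase that binds the bridging ligand Gas6 on dying cells, was 3.59 and 4.09 FPKM against 9.87 and 8.92 FPKM at 0 h, 3.93 and 3.38 against 7.99 and 9.03 FPKM at 10 h, and 3.13 and 4.42 against 8.15 and 8.65 FPKM at 24 h. Its difference of 1.04 ± 0.08 was nearly the same at each time (1.10, 1.03 and 0.99) and both genotypes kept to a narrow range of values. Mertk, the related receptor of resting macrophages, ranged from 15.8 to 36.7 FPKM in wild type and from 18.5 to 38.5 FPKM in the labelled knockout and differed by 0.11 (adjusted p = 0.242). Of 16 tested efferocytosis genes 5 were higher (31.2%) and 1 was lower (6.25%), beside 7.06% and 2.88% of all tested genes. The lower one was the ligand Gas6 itself (-0.33, adjusted p = 0.0429), whose call was absent without wild-type 0 h replicate 1 or 24 h replicate 2. The others that rose included Itgb3, the beta 3 integrin chain (0.80 ± 0.07), and the scavenger receptor Scarf1 (0.52 ± 0.06, 3.06 to 4.31 against 4.64 to 7.04 FPKM).

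Among other leading genes, Mcoln3, an endolysosomal calcium channel, ranged from 0.863 to 3.74 FPKM in wild type and 3.16 to 10.8 FPKM in the labelled knockout (1.30 ± 0.07). Pdzk1ip1, a small membrane protein, was at 9.44 and 6.57 against 25.7 and 29.4 FPKM at 0 h (1.29 ± 0.10). Ppic, a peptidyl-prolyl isomerase of the secretory pathway, differed by 1.21 ± 0.09 and reached 1 FPKM in labelled-knockout libraries alone. Growth factor genes were divided, with 5 higher (22.7%) and 4 lower (18.2%) of 22 tested, beside 7.06% and 2.88% of all tested genes. Csf1, the macrophage growth factor, rose from 0.882 to 4.13 FPKM to 2.07 to 7.52 FPKM (0.70 ± 0.06), and Vegfa, the angiogenic factor, fell from 13.4 to 27.0 FPKM to 8.58 to 21.2 FPKM (-0.59 ± 0.05).

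Inflammatory mediators were also divided, with 6 higher (24%) and 4 lower (16%) of 25 tested and a median of 0.07. Of the 25, 2 reached 1 FPKM in labelled-knockout libraries alone, and 5 of the 23 that reached it in wild type were higher. The monocyte-attracting chemokine Ccl7 was 2.07 and 3.5 against 5.16 and 5.79 FPKM at 0 h and 64.2 and 65.8 against 81.6 and 91.3 FPKM at 24 h (0.59 ± 0.09). The costimulatory receptor Cd40 fell by 0.55 on the log2 scale and the inflammasome sensor Nlrp3 by 0.36. Interferon-response genes gave 2 higher and 0 lower of 38, a share of 5.26% beside the 7.06% of all tested genes, and both (Ifi44 and Gbp6) reached 1 FPKM in labelled-knockout libraries alone. Gbp6 lost its call in 10 of 12 fits that left out 1 library and Ifi44 in 3 of 12. Glycolysis genes gave 1 higher and 1 lower of 21 (4.76% each), and endoplasmic reticulum chaperones 1 higher (4.76%) and 0 lower of 21. The shares of all tested genes were 7.06% higher and 2.88% lower. Over the rescalings and 3 left-out wild-type libraries, the glycolysis counts ran from 0 to 4 higher and 0 to 3 lower, and the chaperone count from 0 to 4 higher. Of 23 tested genes of DNA methylation and demethylation, 3 were higher (13%) and 1 lower (4.35%). Gadd45a, a stress-response gene tied to demethylation, was at 16.2 and 12.4 against 29.4 and 30.2 FPKM at 0 h and overlapped at 24 h (0.73 ± 0.08).

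**Figure D5:**
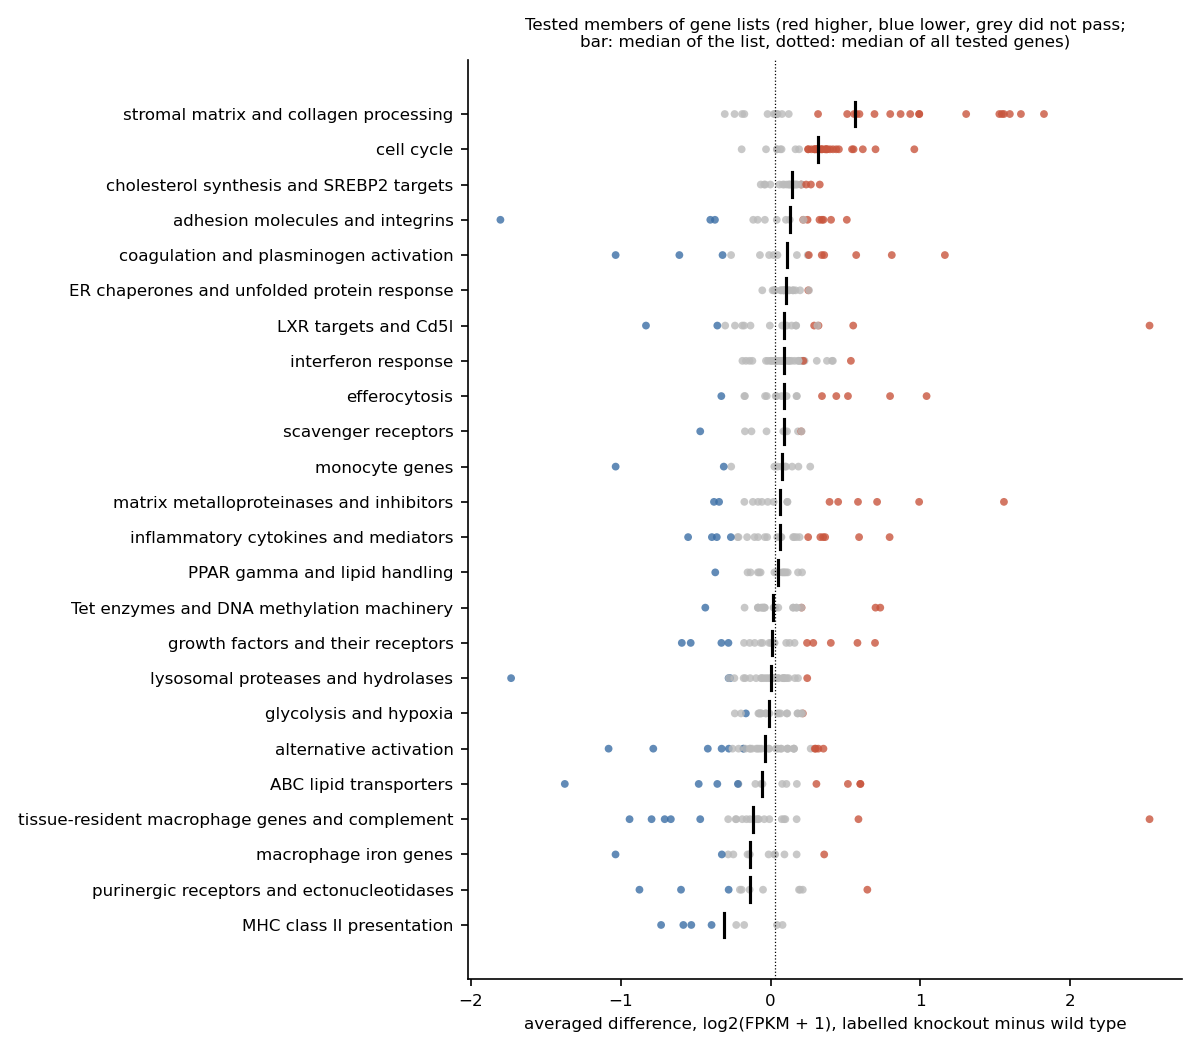
Averaged genotype difference (x axis, log2(FPKM + 1)) of each tested member of 24 gene lists, red where higher, blue where lower and grey where the test was not passed. The black bars are list medians, highest for matrix (0.57) and cell cycle (0.31) and lowest for MHC class II (-0.31), and the dotted line is the median of all tested genes (0.03).

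Alternative activation genes showed where an average over times is not a lasting difference. Of 34 tested members 6 were lower (17.6%) and 4 higher (11.8%), beside 2.88% and 7.06% of all tested genes. The median was -0.04 (0.01 without wild-type 24 h replicate 2). Of the 34, 1 reached 1 FPKM in labelled-knockout libraries alone, and 3 of the 33 that reached it in wild type were higher. Mgl2, a galactose-binding lectin induced by IL4, was 5.55 and 3.82 against 1.96 and 1.32 FPKM at 0 h, 143 and 127 against 49.0 and 54.9 FPKM at 10 h, and 509 and 585 against 295 and 342 FPKM at 24 h. The labelled knockout was lower before and after induction (-1.08 ± 0.10). Arg1, arginase 1, was 1.38 and 1.03 against 1.63 and 1.45 FPKM at 0 h, and lower in the labelled knockout once induced, at 186 and 159 against 71.7 and 79.6 FPKM at 10 h. Retnla, Chi3l3 and Mrc1, other standard markers of this state, differed by -0.06, -0.18 and 0.11, with adjusted p of 0.791, 0.209 and 0.426.

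A test of genotype by time called 25 genes (0.238% of those tested), 19 of them also called in the averaged difference. At an unadjusted p of 0.05 the interaction touched 34.5% of the genes called in the average and 14.2% of all tested genes. Of the named genes, which were also called in the average, Ear3, an eosinophil-associated ribonuclease with close paralogs that share reads, had the smallest interaction p (adjusted p = 0.00200). It was below 0.33 FPKM at 0 and 10 h, and at 24 h stood at 3.80 and 4.25 FPKM in wild type and was listed at 0 in both labelled-knockout libraries. With a pseudocount of 0.1 FPKM its adjusted p was 0.154. F10, coagulation factor X, was close at 0 h (0.926 and 0.876 against 0.903 and 0.947 FPKM) and differed by -1.34 at 24 h, at 84.1 and 90.6 against 30.7 and 37.1 FPKM. Arg1 went from 0.21 at 0 h to -1.38 at 24 h (interaction adjusted p = 0.00591), and was called under all 20 alternatives. Ednrb, the endothelin B receptor, moved the other way, from -0.09 to 1.29 (interaction adjusted p = 0.0108), at 5.58 and 5.26 against 14.8 and 14.5 FPKM at 24 h. Its call was lost without knockout 0 h replicate 1, 24 h replicate 1 or 24 h replicate 2 (adjusted p 0.0601, 0.0629 and 0.0520). Timp1, among the leading genes, narrowed from 2.13 at 0 h to 0.43 at 24 h, where wild type had its highest values (interaction adjusted p = 0.00415). With array quality weights the interaction call was lost for Timp1 (adjusted p = 0.0665) and F10 (adjusted p = 0.0723). Without the 24 h libraries the averaged difference was not called for Ear3, F10 or Ednrb (adjusted p = 0.876, 0.0506 and 0.158). Thbs1, the matrix glycoprotein thrombospondin 1, was singled out after its values were seen and was not called in the average (0.12, adjusted p = 0.306). It stood at 44.5 and 45.0 against 45.7 and 42.3 FPKM at 0 h, 5.91 and 6.80 against 13.3 and 13.9 FPKM at 10 h, and 12.9 and 16.2 against 9.47 and 8.97 FPKM at 24 h (interaction adjusted p = 0.00591). The labelled knockout was thus above wild type at 10 h and below it at 24 h, with differences of 0.99 and -0.60. Among other matrix genes the differences of Ctgf (1.45, 0.94 and 0.41 at 0, 10 and 24 h) and Cyr61 (1.26, 1.01 and 0.34) narrowed, with interaction adjusted p = 0.0390 and 0.0393.

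The same genes were read in macrophages sorted as CD11b+ F4/80+ cells from YUMM1.7 melanomas, grown for 4 weeks under the skin of C57BL/6J animals that the labels call male, aged between 6 and 8 weeks. The RNA of 7 of the 8 libraries goes against that label: Xist, expressed from the inactive X chromosome of females, was at 62.4 to 128 FPKM, and the Y-linked Eif2s3y was at most 0.0641 FPKM. In wild-type mouse 8 alone Xist was at 0.414 FPKM and Eif2s3y at 21.5 FPKM, so this mouse differed from the other 7 in sex markers, and the main tumour values are also given without it. The 4 wild-type mice carried Tet2 fl/fl without Cre and the 4 knockout mice Tet2 fl/fl with LysM-Cre, which acts in myeloid cells, so that both groups carried the floxed allele. These libraries were selected for polyadenylated RNA and their table was normalised separately, so each table was tested on its own and levels were not compared across them. Of 9897 tested genes 10 were called (0.101%), with 1676 at an unadjusted p of 0.05, and without wild-type mouse 8 the count was 23 (0.232%), all 10 among them. Abi3, Bin2, Clec10a and Parp11 were called in both tissues (9 genes without that mouse, these 4 among them), and Bin2 had opposite signs (0.96 in tumours, -0.31 in culture). Clec10a, a close paralog of Mgl2 with which it may share reads, fell from 15.9 to 22.8 FPKM to 3.19 to 5.99 FPKM in tumours (-1.87 ± 0.18, adjusted p = 0.0149, limma, and -1.83 ± 0.20, adjusted p = 0.0342, without wild-type mouse 8). In culture it stood at 129 and 103 against 62.2 and 61.4 FPKM at 0 h and at 257 and 297 against 300 and 299 FPKM at 24 h, and the averaged call was lost without the 0 h or the 10 h libraries (adjusted p = 0.183 and 0.101).

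None of the 30 leading genes was called in the tumour macrophages, of which 10 higher and 13 lower ones could be tested. Of the 10, 2 had a positive difference (4 without wild-type mouse 8), and of the 13, 9 had a negative one (8 without that mouse). Wild-type mouse 8, the library with Y-linked RNA, also stood apart in matrix genes, and the part of this in the results was not tested. Col1a2 was at 77.2 FPKM there and at 3.79 to 6.12 FPKM in the other 3 wild-type mice. Abca9, F13a1, P2ry12, Folr2 and Fcna lay below wild type in all 4 knockout mice, as in culture (3.27% of tested genes lay below in this way and 9.13% above, and 4.33% and 12% without wild-type mouse 8, where the 5 genes were also separate). For Abca9 the tumour difference was -1.73 (adjusted p = 0.121), and for P2ry12 -1.0 (adjusted p = 0.110). Without wild-type mouse 8 they were -1.43 (adjusted p = 0.130) and -0.79 (adjusted p = 0.0624). Cadm1 and Ifi30 had positive differences there (1.29 and 0.42, adjusted p = 0.214 and 0.361), and Axl, listed at 0 in wild-type mice 7 and 8, had 3.48 (adjusted p = 0.252). Without wild-type mouse 8 these were 1.13, 0.29 and 2.56 (adjusted p = 0.309, 0.538 and 0.388). Cd5l stayed below 1 FPKM in all 8 tumour libraries and was not tested. With all 8 mice, the 10 tested class II genes were all positive in tumours (median 0.88, 0 called). Other lists also leaned this way: all 39 tested interferon-response genes were positive (median 1.47, 0 called). Inflammatory mediators gave 27 positive and 4 negative, and adhesion genes 18 positive and 3 negative (0 called in either). Of 27 tested matrix genes 4 were positive and 23 negative (median -0.77, 0 called). Of 35 cell-cycle genes 34 were positive and 1 negative (median 0.50, 0 called). Ccnd1, Uhrf1, Top2a and Rrm2 were higher in knockout mice 5 and 6 than in knockout mice 3 and 4. For Top2a the values were 37.6 and 33.1 against 8.20 and 6.37 FPKM, with 5.72 to 12.8 FPKM in wild type. The tumour list counts were not repeated without wild-type mouse 8, where H2-Ab1 was 260 FPKM against 1385 to 2756 FPKM in the other 3 wild-type mice. Over all genes higher in culture, 66.8% of the 576 tested in tumours were positive there, against 61.9% of all tested genes (71% against 64.1% without wild-type mouse 8). Of the genes lower in culture, 51.5% of 239 were negative in tumours, against 38.1% of all tested genes (53.6% against 35.9% without that mouse).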

How the data were processed

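RNA was measured in 12 BMDM and 8 tumour macrophage libraries. Reads were aligned with TopHat to mm9 and quantified as FPKM with Cuffdiff, per the submitters' processing notes. BMDM libraries were ribosomal-RNA depleted and tumour libraries polyA selected, per the labels' protocols. Each deposited table holds 23309 gene rows with FPKM per library as the authors made it, so no count model was used. FPKM holds no read counts, and an abundant RNA lowers all other values. The unit of the tumour table was taken from its values and the shared notes. For 2 symbols listed more than once the row with the highest mean was kept, and 23173 symbols matched reference gene symbols.

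Values were taken as log2(FPKM + 1), which understates changes of low genes, for genes at 1 FPKM or more in at least 2 BMDM (4 tumour) libraries. limma 3.58.1 (R 4.3.3) was fitted over 6 groups with an intensity trend (6 residual degrees of freedom). The contrast averaged 3 within-time differences, the interaction was a moderated F test, and Benjamini-Hochberg adjustment used a threshold of 0.05. The leading genes were the 15 highest and 15 lowest named genes called and separated at each time. From each list up to 4 members with the smallest p, and the 5 smallest interaction p-values among genes also called in the averaged difference, were also eligible. Bgn, Ctgf, Cyr61, Thbs1, Fstl1, Timp2, Tgfbi, Spic, Siglec1, Gas6, Mertk, Ciita, H2-DMa, Retnla, Chi3l3 and Mrc1, members of fixed lists, and the C1q genes were named after their values were seen. Scripts were tested on simulated data. The part examined, the gene lists and the tests were chosen with earlier results of these data known. Alternatives varied pseudocount, filter, scaling, weights, trend, model, times and single libraries. Lists were also recounted, as chosen after seeing the data, under both rescalings and without 3 wild-type libraries. The values of 1 leading gene and 1 cell type marker are not reported here.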

Additional observations from a re-analysis of the deposited data

Results flagged for a closer look

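In tumour macrophages 10 of 48 groups of 4 mice examined for the leading genes and Tet2 had 1 mouse far from the other 3. The nominal rate of about 1 in 20 holds for independent groups, and these groups share the same 8 mice, so the count cannot be set against it. Wild-type mouse 8 was the high one in 8 of the 10. This library alone had Y-linked RNA (Kdm5d 4.34 and Uty 3.97 FPKM, at most 0.0681 and 0.0555 FPKM in the other 7) and had Xist at 0.414 FPKM against 62.4 to 128 FPKM. There Col1a2 was 77.2 FPKM against 3.79 to 6.12 FPKM, Sparc 72.1 against 4.02 to 5.79 FPKM, Mgp 836 against 45.4 to 77.6 FPKM, Serpinh1 28.8 against 0.975 to 3.06 FPKM, Grem1 5.44 against 0.308 to 0.821 FPKM and Ppic 26.3 against 2.67 to 3.37 FPKM. The resident-macrophage genes Fcna (90.03 against 6.58 to 8.87 FPKM) and Folr2 (181 against 15 to 25.5 FPKM) were also high in that mouse. Knockout mouse 5 was high for Grem1 (3.07 against 0.920 to 1.12 FPKM) and Hgsnat (33.2 against 25.0 to 25.7 FPKM).

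The genotype difference in BMDM varied with time for Ear3 (interaction adjusted p = 0.00200), Timp1 (0.00415), Arg1 (0.00591), F10 (0.00847) and Ednrb (0.0108), by the F test in limma, among the genes also called in the averaged difference. Ppic was higher in all 6 labelled-knockout BMDM libraries and lower in all 4 knockout tumour macrophage libraries (-1.39), and the difference between tissues was not tested.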

How the results depend on the processing

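The 30 leading genes, chosen for large differences in these same libraries, were past the threshold under every alternative in which they were tested. Some other named genes, such as Vegfa, also kept the call in all, and others lost it, such as Hk1 (past in 6 of 24 alternatives). The 1045 calls became 645 when each library had to reach 1 FPKM, 405 without 10 h and 670 without 24 h, and ranged from 613 to 1789 with single libraries left out. The 742 higher calls became 434 under the strict filter and 484, 287 and 439 without 0, 10 and 24 h (417 to 1348 with single libraries left out). The 303 lower calls became 539 with median-of-ratios scaling, 584 with quantile normalization and 118 without 10 h (196 to 538 with single libraries left out). Of the main calls, 720 higher and 283 lower genes were called without wild-type 0 h replicate 1. The 25 interaction calls became 16 with a pseudocount of 0.1, 68 with no filter, 7 with the strict filter, 59 and 69 under the 2 rescalings, 11 with array weights and 14 to 669 with single libraries left out. The 10 calls in tumour macrophages became 6 with no filter or either rescaling and 1 to 23 with single mice left out. The small differences of the Tet genes changed sign: Tet2 to 0.0082 without wild-type 0 h replicate 2, and Tet3 to 0.098 without 0 h, 0.089 without wild-type 0 h replicate 2 and 0.014 without wild-type 24 h replicate 2 (range -0.17 to 0.089 with single libraries left out). Apart from fits with fewer libraries or genes, the cause was not tested.

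Deviations of same-numbered wild-type and knockout libraries correlated at 0.07, 0.11 and -0.14 at 0, 10 and 24 h. Over all 15 pairs of first replicates, across times too, the range was -0.14 to 0.15. With 2 libraries per group these values cannot settle whether the replicate numbers pair the samples. With the number as a replicate block 941 genes were called (660 higher, 281 lower) and 19 in the interaction. The depth of each library is not known in reads, so counting error could not be separated from replicate spread.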

Other observations

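Phgdh, the first enzyme of serine synthesis, and Acta2, smooth-muscle actin, lay just outside the leading genes and were singled out after their values were seen. Phgdh was 0.956 and 1.12 FPKM against 3.09 and 2.71 FPKM at 0 h, 2.28 and 2.26 against 7.56 and 6.25 FPKM at 10 h, and 2.54 and 2.01 against 4.78 and 4.72 FPKM at 24 h, separate in all 12 libraries (1.01 ± 0.07, adjusted p = 7.5e-06, limma). Acta2, a gene of contractile stromal cells, was 0.897 and 1.14 against 3.81 and 4.04 FPKM at 0 h and 0.281 and 0.142 against 0.903 and 0.784 FPKM at 24 h (1.03 ± 0.06).

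Markers of lymphocytes were nearly absent with 2 exceptions. Cd4 was 4.77 and 4.21 FPKM in wild type and 13 and 13 FPKM in the labelled knockout at 0 h (0.98 ± 0.05), while the T cell gene Cd3g and the cytotoxic granule gene Gzma were listed at 0 in all 12 libraries. Cd79b, a chain of the B cell receptor, was 0.420 to 1.40 FPKM against 2.06 to 2.99 FPKM (0.76 ± 0.12). Of 7 tested neutrophil markers 1, Csf3r, was lower (14.3%) and 0 were higher, beside 2.88% and 7.06% of all tested genes.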
